A study of Mus musculus with 60 samples.

Results

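The 8 genes described here encode nuclear RNA-binding proteins, kinases and a helicase linked to pre-mRNA splicing: Clk1, Clk4, Tra2a, Luc7l, Luc7l3, Ddx5, Arglu1 and Rsrp1. They were chosen by their change with the dose of benzo(ghi)perylene (BghiP), the slope of the log2 ratio in an earlier fit of these same arrays, so the dose changes below describe them and are no test of them. Every array probe whose RefSeq accession belongs to 1 of the 8 symbols was kept, which gave 13 of the 55681 probes on the array, for 8 of the 20018 gene symbols matched. Ddx5 had 3 probes, Luc7l, Clk4 and Arglu1 had 2 each, and the other 4 genes had 1 each. The name of a set that falls with dose held only in part: 3 probes fell in liver, 1 fell in lung, none fell in forestomach, and 1 Ddx5 probe rose in liver.

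BghiP is a polycyclic aromatic hydrocarbon, and the series asked how lung, liver and forestomach transcripts responded to it. Adult male mice of the Muta Mouse strain, a transgenic line that carries a lacZ reporter for mutations in every group, were about 10 weeks old. All were gavaged once daily for 28 days with olive oil. The oil alone formed group D0 (mice 1 to 5), and it carried BghiP at 6.25 mg/kg-bw/day in D1 (mice 6 to 10), at 12.5 in D2 (mice 11 to 15) and at 25 in D3 (mice 16 to 20). Lung, liver and forestomach were taken from each of the 20 mice 72 hours after the last dose, and each of the 60 arrays measured 1 tissue of 1 mouse, labelled with Cy5, against a reference RNA pooled from 11 mouse cell lines, labelled with Cy3. Values below are log2 ratios of tissue to reference, with 5 mice per group and tissue. The slide is the glass that carries several arrays: lung and forestomach arrays shared 5 slides, with every dose on each, and liver arrays lay on 3 slides of their own. Every dose group kept to its own array column on all slides, so dose and column cannot be told apart.

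Splicing removes introns from pre-mRNA. The U1 snRNP, a complex of RNA and protein, marks the start of an intron, and serine/arginine-rich (SR) proteins bound to exons help it and other parts of the spliceosome to assemble. CLK kinases phosphorylate SR proteins in nuclear speckles, where many splicing factors are stored. Several genes of this kind, among them the Clk and SR genes, also give rise to transcripts with a retained intron or a poison exon, so that probes at different places in 1 gene can measure different transcripts.

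The stretches around the transcription starts are shown for the genes that carry the results below: Clk4, whose 2 probes lay on the high side at D3 in liver, Luc7l3 and Ddx5, with probes that fell there, and Rsrp1, which differed most between mice. Each line holds the gene strand from 250 bases before to 50 bases after a RefSeq start, in build GRCm38.p6, and 5 of the 8 genes had such an entry. Ddx5 has 3 starts in RefSeq, of which 1 is printed. Capitals mark matches, on either strand, to 6 motifs: the CCAAT box under its own letters, the GC box as GGGCGG, the E-box as CACGTG, the cAMP response element as TGACGTCA, an ETS site as CCGGAAGT and the TATA box as TATAAA.
Clk4, chr11:51262864-51263163, plus strand: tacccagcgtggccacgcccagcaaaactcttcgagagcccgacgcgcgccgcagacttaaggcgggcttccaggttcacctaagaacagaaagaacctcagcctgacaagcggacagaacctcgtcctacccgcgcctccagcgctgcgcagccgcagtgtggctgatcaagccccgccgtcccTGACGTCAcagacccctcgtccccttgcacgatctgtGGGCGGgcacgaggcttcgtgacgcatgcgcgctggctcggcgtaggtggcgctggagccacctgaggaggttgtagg
Luc7l3, chr11:94321914-94322213, minus strand: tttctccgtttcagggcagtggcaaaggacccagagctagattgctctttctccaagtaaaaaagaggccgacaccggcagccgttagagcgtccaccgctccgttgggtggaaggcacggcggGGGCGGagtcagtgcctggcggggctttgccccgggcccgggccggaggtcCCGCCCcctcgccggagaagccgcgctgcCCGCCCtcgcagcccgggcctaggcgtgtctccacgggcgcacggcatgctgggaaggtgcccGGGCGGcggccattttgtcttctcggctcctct
Ddx5, chr11:106788445-106788744, minus strand: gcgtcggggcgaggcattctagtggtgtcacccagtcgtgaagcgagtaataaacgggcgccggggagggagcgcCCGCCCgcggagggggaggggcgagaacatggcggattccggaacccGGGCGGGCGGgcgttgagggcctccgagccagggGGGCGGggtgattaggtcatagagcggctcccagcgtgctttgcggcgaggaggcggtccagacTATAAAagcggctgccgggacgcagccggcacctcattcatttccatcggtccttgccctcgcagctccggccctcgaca
Rsrp1, chr4:134923375-134923674, plus strand: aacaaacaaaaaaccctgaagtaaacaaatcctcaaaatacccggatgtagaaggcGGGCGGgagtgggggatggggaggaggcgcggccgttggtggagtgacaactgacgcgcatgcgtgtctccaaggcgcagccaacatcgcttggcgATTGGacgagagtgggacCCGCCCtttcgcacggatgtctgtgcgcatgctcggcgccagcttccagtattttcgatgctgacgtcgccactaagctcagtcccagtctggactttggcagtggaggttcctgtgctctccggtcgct
Of 32851 RefSeq promoters of the same length, 37.4% held the CCAAT box, 35.7% the GC box, 7.15% the E-box, 1.79% the cAMP response element, 3.89% the ETS site and 13.6% the TATA box. Luc7l3 and the Ddx5 start shown had 4 matches each to the GC box, Rsrp1 had 2 and Clk4 had 1. The cAMP response element was found once in Clk4 and once in Tra2a. GC content was 68.7% for Luc7l3, 68.3% for Ddx5, 65.3% for Clk4 and 58.3% for Rsrp1, beside a median of 52.7% over all promoters. These matches describe the letters in the windows and were not tied to any value measured here.

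All 13 probes passed the filter on dim probes in each tissue, on at least 5 of the 20 arrays. The call rests on the linear slope on dose, fitted by limma with slide as a block, at the 0.05 level after adjustment over the tissue's probes. In liver, 3 of the 13 were called lower, where 1.65% of all 25893 tested probes were, and 1 was called higher, where 0.966% were. In lung, 1 was called lower, where 0.0903% of 31022 probes were, and none higher, where 0.216% were. In forestomach none of the 13 was called, as was true of all 25070 probes (0% in either direction). At an unadjusted p under 0.05 there were 4 of the 13 in forestomach, and 2077 among all its probes. Fitted changes from 0 to 25 mg/kg-bw/day were negative for 10 of the 13 probes in lung, for 7 of them in liver and for 8 in forestomach. Their medians were -0.20, -0.02 and -0.08, beside medians over all tested probes of 0.01, -0.0029 and 0.0049. Against vehicle alone, with at least 1.5-fold asked for as well, D3 was called lower in liver for the same 3 probes (0.0772% of all probes were) and in lung for Rsrp1 (0.0129%), and higher for none (0.0154% and 0.0548%). For the 3 liver probes these calls at D3 were less stable than the slopes: of 27 other settings, Luc7l3 kept its call in 8, and Arglu1 and Ddx5 in 17 each. The call of Rsrp1 at D3 in lung was kept in 17, more than that of its slope (7). Without the slide block no probe of either tissue was called at D3, and the calls of the 3 liver probes were also lost without any 1 of mice 2, 3, 5 and 16 to 20. Without the slide block, the same 3 liver probes were called lower by slope (0.182%) and none higher (0.0579%). Since these contrasts chose the genes, no weight rests on those counts.

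**Figure D1:**
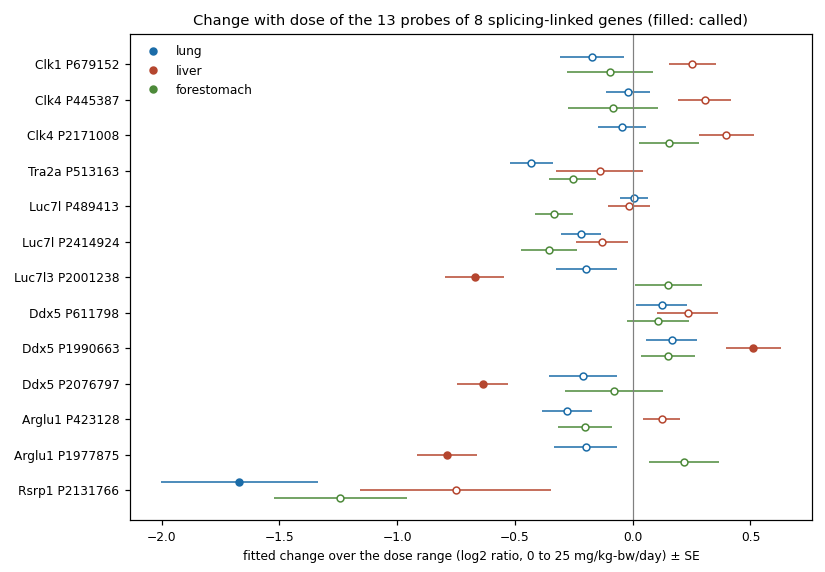
Fitted change of the log2 ratio from 0 to 25 mg/kg-bw/day (x axis) for each of the 13 probes (y axis) in lung, liver and forestomach. Points are estimates with slide as a block, bars are 1 standard error, and filled points were called. The filled points below 0 are Arglu1, Luc7l3 and Ddx5 in liver and Rsrp1 in lung, and the filled point above 0 is a second Ddx5 probe in liver.

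Clk1 and Clk4 are kinases that phosphorylate SR proteins. Neither fell in any tissue by the call, and in liver all 3 probes lay on the high side at D3. The Clk1 probe (A_52_P679152) read -0.70, -0.77, -0.63, -1.27 and -0.64 in the D0 livers and -0.62, -0.54, -0.60, -0.49 and -0.52 in the D3 livers. Every D3 liver was thus above every D0 liver, though the nearest values, -0.63 and -0.62, almost met, and 0.919% of all liver probes showed such a separation upwards. The fitted change over the dose range was 0.25 ± 0.10 (SE, n = 20 livers) and was not called.

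For Clk4, probe A_55_P2171008 read -0.67, -0.59, -0.14, -0.91 and -0.39 in D0 livers and -0.20, -0.19, -0.18, -0.18 and -0.03 in D3 livers. The groups overlapped through vehicle mouse 3, and the D3 livers were packed within a narrow range except for mouse 20. The change over the dose range was 0.40 ± 0.12 (SE), and that of the other Clk4 probe (A_52_P445387) was 0.31 ± 0.11, neither of them called. On each of the 3 liver slides D3 exceeded D0 for Clk1 and for both Clk4 probes, by 0.12 to 0.48 over the 3 probes. Lung and forestomach changes of the 3 kinase probes ran from -0.17 to 0.15 and none was called.

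Tra2a, an SR-like protein that binds exonic enhancers, had its clearest change in lung. Its probe (A_51_P513163) read -0.69, -0.002, -0.69, -0.31 and -0.51 in D0 lungs and -0.85, -0.98, -1.05, -0.77 and -0.80 in D3 lungs. All D3 lungs were below all D0 lungs, a separation shown by 0.384% of lung probes. The change over the dose range was -0.43 ± 0.09 (SE) and missed the call, and D3 was lower on all 5 slides, with differences of D3 minus D0 from -0.98 to -0.16. Without vehicle mouse 1, whose lung carried skeletal muscle and forestomach markers (given below), the change was -0.45. In liver the 5 vehicle mice alone spanned -3.01 to -1.72, and the change was -0.14 ± 0.18. In forestomach D3 was below D0 on all 5 slides and the change was -0.25 ± 0.10, also not called.

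LUC7L and LUC7L3 belong to the LUC7 family, which associates with the U1 snRNP and helps it choose the start of an intron. Luc7l3 fell in liver. Its probe (A_55_P2001238) read -1.20, -0.54, -0.87, -1.03 and -0.42 in D0 livers, -0.73, -1.16, -0.92, -0.66 and -0.90 in D1, -0.98, -1.15, -1.35, -1.29 and -1.18 in D2, and -1.38, -1.68, -1.30, -1.43 and -1.42 in D3. All D3 livers were below all D0 livers, as for 1.81% of liver probes, whereas D1 lay within the range of D0. D3 was 1.54-fold lower than D0 on the log2 scale of the ratio (-0.63 ± 0.13, SE), and the change over the dose range was -0.67 ± 0.12. D3 was below D0 on each of the 3 liver slides, by differences from -0.95 to -0.33. In lung the change was -0.20 ± 0.13 and in forestomach 0.15 ± 0.14, and neither was called.

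Luc7l had values in forestomach that set D3 apart from D0 by 1 of its 2 probes, without a call. The 2 Luc7l probes match different RefSeq transcripts, A_51_P489413 the transcript NM_025881 and A_55_P2414924 the transcript NM_028190. The first read -0.76, -0.66, -0.67, -0.73 and -0.86 in D0 forestomachs and -0.999, -1.01, -0.93, -1.28 and -1.28 in D3 forestomachs. These groups did not overlap, a separation shown by 0.132% of forestomach probes, and D3 was below D0 on all 5 slides. The change over the dose range was -0.33 ± 0.08 (SE) for the first probe and -0.36 ± 0.12 for the second, and neither was called. The second probe was dim, and well above background on 12 of the 20 forestomach arrays. In liver the 2 probes changed by -0.02 ± 0.09 and -0.13 ± 0.11, and in lung by 0.01 ± 0.06 and -0.22 ± 0.09.

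DDX5 is a DEAD-box RNA helicase that remodels RNA in splicing and transcription, and its 3 probes, all matched to the transcript NM_007840, went different ways in liver. Probe A_55_P2076797 fell: it read 0.35, 0.53, 0.73, 0.58 and 0.80 in D0 livers, 0.73, 0.49, 0.37, 0.79 and 0.51 in D1, 0.50, 0.69, 0.21, 0.20 and 0.29 in D2, and -0.04, -0.05, 0.18, 0.04 and -0.17 in D3. The D3 livers lay entirely below D0 and also below D2. Its change over the dose range was -0.64 ± 0.11 (SE), and D3 was 1.52-fold lower than D0.

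Probe A_55_P1990663 rose over the same livers. It read -1.32, -1.77, -0.92, -0.99 and -1.35 in D0 and -0.91, -1.01, -0.68, -0.70 and -0.72 in D3, where the groups overlapped by 1 mouse at -1.01. Its change over the dose range was 0.51 ± 0.12 (SE), and D3 was 1.44-fold higher than D0. This call was lost without the slide block and without any 1 of mice 2, 5, 16, 18, 19 and 20. The third probe, A_52_P611798, changed by 0.23 ± 0.13 and was not called.

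Because both called Ddx5 probes were read on the same array, the difference between their log2 ratios could be followed mouse by mouse. A_55_P2076797 minus A_55_P1990663 had a mean of 1.87 ± 0.33 (SD, n = 5) in D0 livers, 1.70 ± 0.36 in D1, 1.45 ± 0.13 in D2 and 0.80 ± 0.16 in D3. The D3 livers lay between 0.55 and 0.97 and the D0 livers between 1.58 and 2.30. Such a difference shows unequal change of the 2 probes, not how abundant either target was. Since 1 probe was called lower and the other higher over these livers, the narrowing restates those calls and is no added support. In lung the same difference was 2.39 ± 0.46 at D0 and 1.94 ± 0.24 at D3, with overlapping groups, and no Ddx5 probe was called in lung or forestomach.

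ARGLU1 is an arginine- and glutamate-rich protein that acts as a coactivator of nuclear receptors and as a splicing regulator. Its 2 probes, both matched to NM_176849, also parted in liver. Probe A_55_P1977875 fell: it read 0.21, 0.85, 0.73, 0.35 and 0.79 in D0 livers, 0.62, 0.30, 0.34, 0.76 and 0.23 in D1, 0.29, 0.25, 0.41, -0.22 and -0.02 in D2, and -0.17, -0.24, -0.03, -0.33 and -0.27 in D3. Every D3 liver was below every D0 liver, and D2 overlapped both. The change over the dose range was -0.79 ± 0.13 (SE), the steepest of the 13 in liver, and D3 was 1.71-fold lower than D0.

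Probe A_52_P423128 of Arglu1 changed by only 0.12 ± 0.08 over the same livers. The difference between the 2 Arglu1 probes shrank from 1.87 ± 0.34 (SD, n = 5) at D0 to 0.96 ± 0.17 at D3 without overlap. That narrowing restates the fall of A_55_P1977875. In lung the difference between the 2 probes was 1.41 ± 0.34 at D0 and 1.46 ± 0.43 at D3. A_52_P423128 read -0.46, -0.64, -0.57, -0.50 and -0.71 at D0 and -0.96, -1.03, -0.76, -0.82 and -0.81 at D3, again without overlap, whereas A_55_P1977875 read 0.48 to 1.13 at D0 and from below 0 to 1.07 at D3. Changes over the dose range in lung were -0.28 ± 0.11 (SE) and -0.20 ± 0.13, and neither was called. In forestomach they were -0.20 ± 0.11 and 0.22 ± 0.15.

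The 3 liver falls had further features in common. They lay in the tissue channel and not in the reference channel: from D0 to D3, log2 Cy5 changed by -0.68 for Arglu1 A_55_P1977875, -0.55 for Luc7l3 and -0.55 for Ddx5 A_55_P2076797, while log2 Cy3 changed by 0.11, 0.08 and 0.05. All 3 were lower at D3 on each of the 3 slides, and D1 was within 0.15 of D0 for each of them. Each stayed called by slope in all 27 other settings tried, including without the slide block and without any 1 mouse, whereas D3 against vehicle stayed called in 8 of them for Luc7l3 and in 17 for the other two probes. All these features come from the arrays that chose the genes, so they describe the 3 falls and are no added support for them. How many other called liver probes share the same features was not tested. A bulk liver sample mixes cell types, so fewer cells of a type and less RNA per cell cannot be told apart here.

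**Figure D2:**
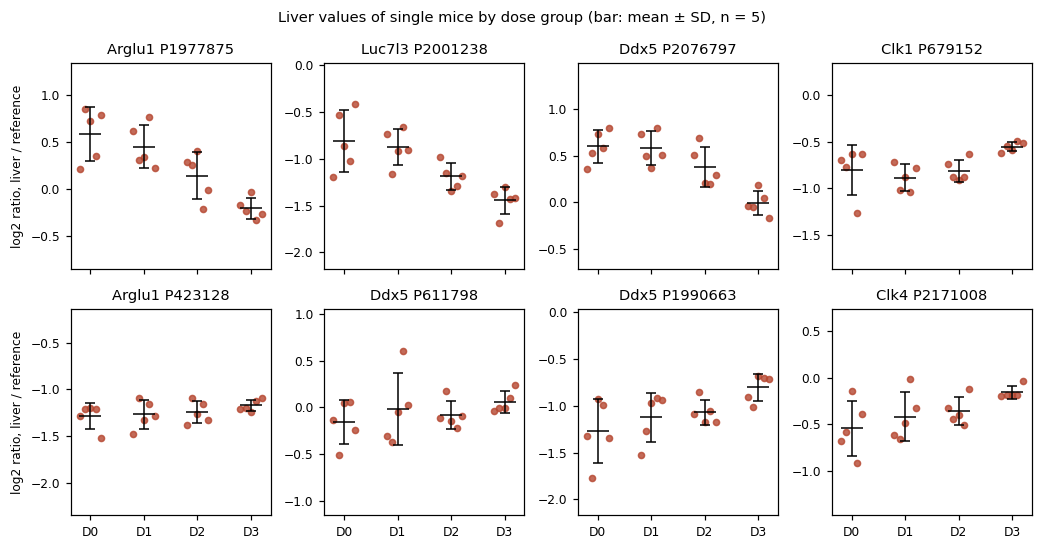
Log2 ratios of single livers (y axis) by dose group (x axis) for the probes named in the panel titles. Each point is 1 mouse, the horizontal line is the mean of 5 mice and the error bar is 1 SD. Arglu1 A_55_P1977875, Luc7l3 and Ddx5 A_55_P2076797 step down at D2 and D3, whereas Ddx5 A_55_P1990663 is higher at D3 than at D0.

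RSRP1 is an arginine- and serine-rich nuclear protein. Its single probe (A_55_P2131766, transcript NM_023665) read -2.79, -2.32, -0.75, -0.93 and -0.97 in D0 lungs, -3.15, -2.63, -2.81, -3.01 and -1.19 in D1, -3.40, -3.09, -1.92, -2.92 and -3.14 in D2, and -3.35, -3.42, -3.41, -3.52 and -3.11 in D3. The D3 lungs were all below the D0 lungs, by a change over the dose range of -1.67 ± 0.33 (SE). Vehicle mice 3, 4 and 5 were high and mice 1 and 2 low, mouse 10 stood above the other D1 lungs and mouse 13 above the other D2 lungs, and the D3 lungs lay close together.

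The mice with high Rsrp1 were the same in all 3 tissues. The 5 highest values came from mice 3, 4 and 5 of D0, mouse 10 of D1 and mouse 13 of D2 in lung, in liver and in forestomach, and no D3 mouse was among them. In liver these 5 read -1.34, -1.78, -1.19, -1.16 and -1.59, and the next highest of the other 15 mice read -2.88. In forestomach they read -0.92, -2.46, -1.90, -2.37 and -2.36, and the next read -2.82. The gap from the fifth to the sixth mouse was 0.40 in lung, 1.10 in liver and 0.36 in forestomach. Vehicle mice 1 and 2 read -3.44 and -3.32 in liver, where the D3 livers spanned -3.34 to -3.05. Changes over the dose range were -0.75 ± 0.41 (SE) in liver and -1.24 ± 0.28 in forestomach, neither of them called.

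The lung call for Rsrp1 rested on single mice and on the slide block. It was kept in 7 of 27 other settings, and in 4 of the 20 that left out 1 mouse. Without vehicle mouse 4 the change was -1.45 and without vehicle mouse 1 it was -1.75, and neither was called. Without the slide block the change was -1.67 and not called.

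Among 21702 probes tested in every tissue, only 3 followed Rsrp1 across mice, within dose and slide, at a Pearson r above 0.5 in all 3 tissues, and all 3 lay on chromosome 4, the chromosome of Rsrp1. Of the compared probes with a symbol, 6.82% lay on that chromosome. Clic4, an intracellular chloride channel protein (A_51_P127681), had r of 0.93 in lung, 0.85 in liver and, in forestomach, 0.57. Srrm1, which encodes a nuclear matrix protein that coactivates splicing (A_55_P1996456), had 0.87, 0.77 and 0.63. The third probe (A_30_P01028674), with 0.81, 0.67 and 0.64, was placed by the array maker in an unnamed region at chr4:114627748-114632898 of build mm9. Each r is over 20 arrays of 1 tissue that share slides, and 5 mice stood above the rest for Rsrp1, so r leans on those mice. The third probe was nearly flat in lung, from -0.25 to 0.13, and was not high in the same mice. There mice 3, 4 and 13 read -0.09, -0.07 and -0.09, below mice 11 (0.03) and 16 (0.02).

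Clic4 and Srrm1 are 3 and 4 protein-coding genes away from Rsrp1 in the RefSeq gene order. In lung, mice 3, 4, 5, 10 and 13 read between 1.87 and 2.36 for Clic4, and the other 15 mice between -0.10 and 0.59. In liver the same mice read -1.07 to -0.53 for Clic4 and the others -2.61 to -1.91. In forestomach they were not set apart: mice 15 (-0.97) and 20 (-1.01) read above mouse 10 (-1.03). Neighbours differed in this. Of 22 probes for 17 genes within 10 protein-coding genes on either side, 6 had r above 0.5 in lung, 8 in liver and 2 in forestomach. Tmem50a, next to Rsrp1 on one side, had 0.58, 0.59 and 0.30, and Ncmap (A_55_P2095039) had 0.79, 0.84 and 0.07. Syf2, next to Rsrp1 on the other side and itself a spliceosome gene, had r of 0.02, -0.24 and -0.70 in lung, liver and forestomach. A second Srrm1 probe (A_55_P1973387) had 0.13, 0.16 and 0.02, and a second Clic4 probe (A_55_P2021530) had 0.81, 0.41 and -0.03. The cause of these mouse differences was not tested.

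**Figure D3:**
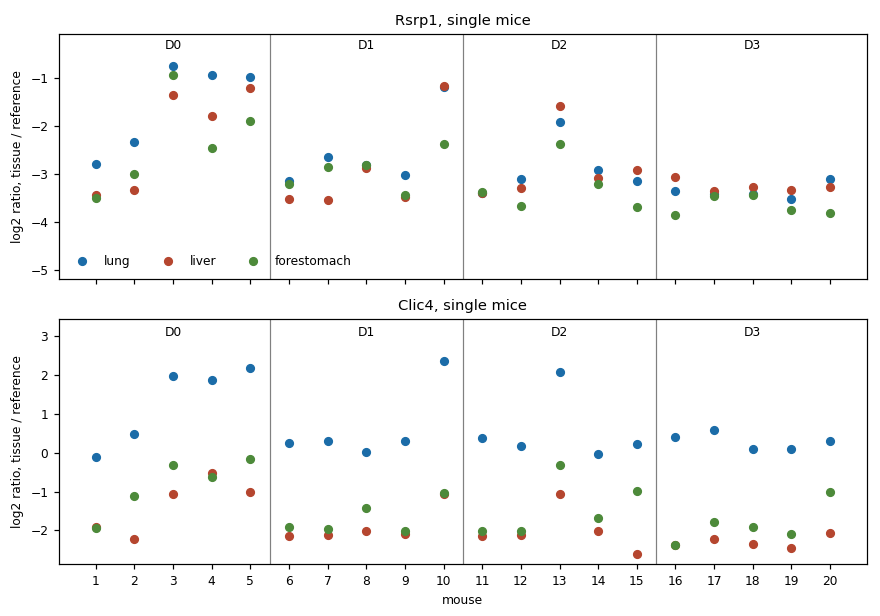
Log2 ratios (y axis) of Rsrp1 (upper panel) and Clic4 (lower panel) in each of the 20 mice (x axis), with lung, liver and forestomach in separate colours and vertical lines between the dose groups. Mice 3, 4, 5, 10 and 13 have the 5 highest Rsrp1 values in every tissue and stand above the other mice for Clic4 in lung and liver.

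Apart from dose, 7 of the 13 probes varied together in 2 blocs in lung, and only in part in the other tissues. Residuals from dose group and slide were correlated over the 20 arrays of a tissue, as a description, for pairs of probes that shared the same arrays. Arglu1 A_55_P1977875, Luc7l3 and Ddx5 A_55_P2076797, the probes that fell in liver, had pairwise r of 0.62 to 0.83 in liver and 0.72 to 0.81 in lung. In forestomach r was 0.71 for Arglu1 with Luc7l3 and 0.10 and -0.02 for the other pairs. The second bloc held Clk1, both Clk4 probes and Arglu1 A_52_P423128, with pairwise r of 0.70 to 0.87 in lung and 0.76 to 0.89 in forestomach, where Ddx5 A_55_P1990663 joined them at 0.72 to 0.85. In liver the Clk probes kept together at 0.61 to 0.88, but r of Arglu1 A_52_P423128 with Clk1 was -0.52. The 2 probes of Arglu1 were in different blocs, with r between them of -0.67 in lung, -0.28 in liver and 0.0002 in forestomach. In lung every pair across the blocs had a negative r, from -0.71 to -0.34. In liver the Clk probes had positive r with the first bloc, from 0.15 to 0.45. Whether the blocs differ from other probe pairs was not tested. Rsrp1, Tra2a, both Luc7l probes and Ddx5 A_52_P611798 were placed in neither, although Luc7l A_51_P489413 and Tra2a had r of 0.67 in lung. Luc7l A_55_P2414924 had r in lung of 0.68 with Arglu1 A_55_P1977875, 0.30 with Luc7l3 and 0.45 with Ddx5 A_55_P2076797. In forestomach these were 0.21, 0.40 and 0.63. Ddx5 A_52_P611798 and A_55_P1990663 had r of 0.56 in lung, 0.69 in liver and 0.27 in forestomach.

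**Figure D4:**
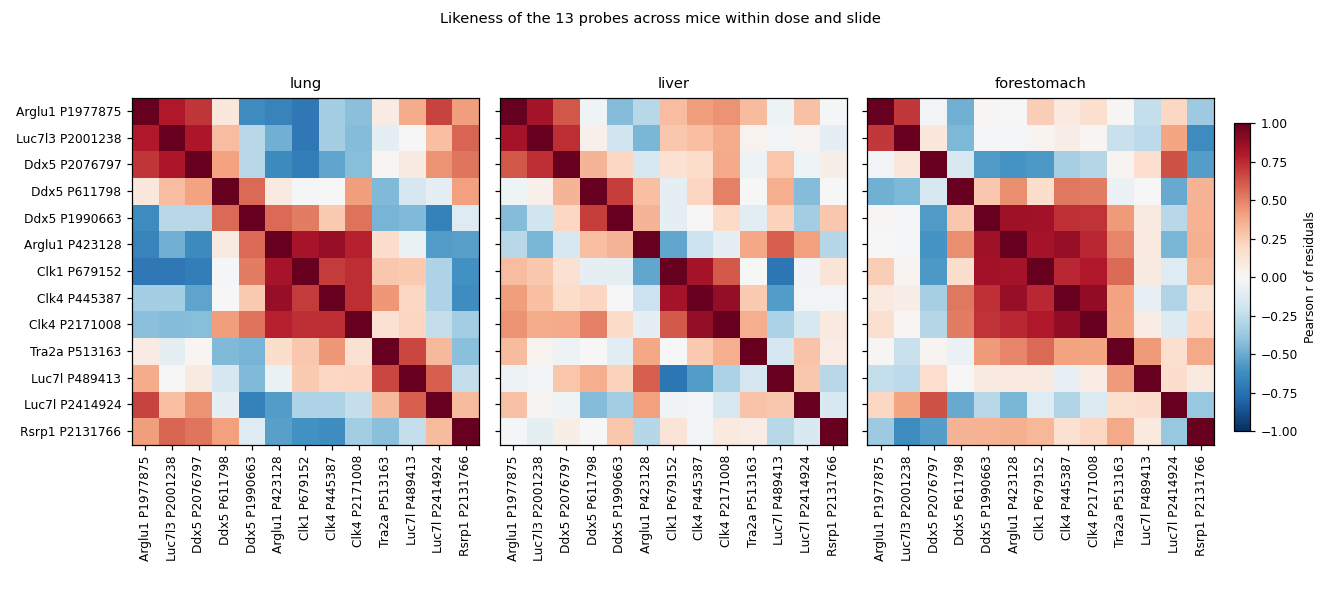
Pearson r between the 13 probes (both axes) over the 20 arrays of lung, liver and forestomach, computed on residuals from dose group and slide, with red for positive and blue for negative r. Arglu1 P1977875, Luc7l3 and Ddx5 P2076797 form a red square at the upper left in lung and liver, and Arglu1 P423128, Clk1 and Clk4 form a second one in lung and forestomach.

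Against the mean of the other genes of the 8, a minority of probes stood out in each tissue. The 95th percentile of r over all tested probes with the mean of the 8 genes was 0.49 in lung, 0.47 in liver and 0.58 in forestomach. Above it lay 1 of the 13 probes for lung, 3 for liver and 5 for forestomach, beside 5% of all tested probes by definition. Whether these counts exceed that share was not tested. Clk4 A_55_P2171008 was among them in each tissue, with r of 0.59, 0.63 and 0.77. Rsrp1 had -0.42, -0.17 and 0.25. The 5 genes outside the set whose residuals were most like the mean of the set were Gramd1a, Ap1g2, Ccbe1, Agtpbp1 and Rimkla in lung, with r from 0.83 to 0.89. They were Dnaja2, Icam4, Eif4g3, Shtn1 and Pcdhb1 in liver (0.77 to 0.83) and Hars2, Sltm, Crebzf, Olfr1368 and Fmn2 in forestomach (0.87 to 0.93). No gene was in more than 1 of these lists of 5.

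How much of each transcript the 3 tissues held was compared in the vehicle mice. Their arrays also took part in the dose contrasts that chose the genes, so the comparison is not wholly independent of that choice. Here the call asked for the same 0.05 level and for a 1.5-fold difference as well, in a limma fit of all 60 arrays. Lung exceeded forestomach for 3 of the 13 probes, where 18.8% of 33255 probes did, and was lower for 1, where 14.5% were. Lung exceeded liver for 6, where 25.4% did, and was lower for none, where 19% were. Liver was lower than forestomach for 3, where 21% were, and higher for none, where 18.2% were. Liver arrays had slides of their own, so a liver difference and a slide difference cannot be told apart.

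Luc7l3 stood highest in lung, at 0.60, 0.69, 0.86, 1.24 and 0.98 in the 5 vehicle mice, against -0.67 to 0.13 in forestomach and -1.20 to -0.42 in liver. The difference from lung to forestomach was 1.15 ± 0.18 (SE, limma adjusted p = 5.75e-07), and from lung to liver it was 1.68 ± 0.18 (adjusted p = 1.37e-11), each in 5 of 5 mice. Liver and forestomach differed by -0.54 ± 0.18, under 1.5-fold. Ddx5 was also highest in lung by 2 of its 3 probes. A_52_P611798 exceeded forestomach by 1.07 ± 0.15 and liver by 1.28 ± 0.15, and A_55_P2076797 by 0.70 ± 0.15 and 1.07 ± 0.15, while the lung excess of A_55_P1990663 over forestomach was 0.19 ± 0.17.

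Tra2a was lowest in liver, with vehicle livers from -3.01 to -1.72, forestomachs from -1.07 to -0.82 and lungs from -0.69 to -0.002. Liver was lower than forestomach by a difference of -1.39 ± 0.16 (SE, limma adjusted p = 1.61e-10) and lung was above liver by 1.88 ± 0.16 (adjusted p = 6.83e-15). Lung and forestomach differed by 0.50 ± 0.16, under 1.5-fold. Clk1 had the same order at its lower end, with liver below forestomach by -0.75 ± 0.17 and lung above liver by 0.96 ± 0.17, and lung and forestomach 0.21 ± 0.17 apart. No Clk4 difference between tissues was called, the widest being 0.55 ± 0.17 from lung to forestomach. Without mouse 3, lung exceeded forestomach past the call for both probes (0.75 for A_52_P445387 and 0.59 for A_55_P2171008), as it did with processed signals (0.63 and 0.60), where A_55_P2171008 was also called higher in liver than in forestomach (0.61).

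Luc7l ran the other way. A_51_P489413 was lowest in lung, at -1.63 to -1.55, and the difference from forestomach was -0.84 ± 0.09 (SE, limma adjusted p = 2.6e-11), in 5 of 5 mice. The other Luc7l probe had a difference of -0.39 ± 0.21, not called. For Arglu1, A_52_P423128 was lower in liver than in lung (0.71 ± 0.11 from lung to liver) and in forestomach (-0.61 ± 0.11 from liver to forestomach), whereas A_55_P1977875 had no called difference, the widest being 0.53 ± 0.20 from lung to forestomach. The forestomach difference of A_52_P423128 fell under 1.5-fold without vehicle mouse 3 (-0.55) or mouse 5 (-0.58). The lung excess of Ddx5 A_55_P2076797 over forestomach was 0.47 without mouse 3, under 1.5-fold and no longer called, and 0.87 without mouse 2. Among these vehicle samples the lung of mouse 1 carried forestomach markers and the forestomach of mouse 2 lung markers (values below). Without mouse 1, the lung excess of Arglu1 A_55_P1977875 over forestomach was 0.66 and called, and without mouse 2, Luc7l3 was called lower in liver than in forestomach (-0.70).

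For Rsrp1 the call between tissues depended on whether the tissues of 1 mouse were paired. Without pairing, lung exceeded forestomach by 0.80 ± 0.44 (SE, limma adjusted p = 0.121) and liver by 0.66 ± 0.44 (adjusted p = 0.182), neither of them called. The lung was the higher in 5 of 5 vehicle mice in both comparisons. With the mouse as a replicate block, which pairs the tissues of 1 animal, both differences were called, with limma adjusted p of 0.000217 and 0.00123. The vehicle lungs also took part in the slope that chose Rsrp1. At D3 the means were -3.36 in lung, -3.25 in liver and -3.65 in forestomach, so the lung excess over liver was not seen there.

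**Figure D5:**
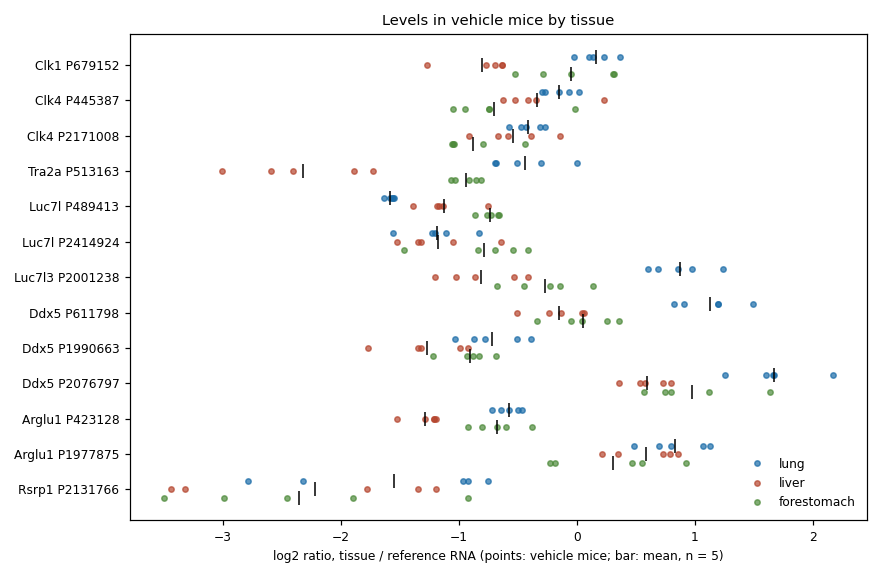
Log2 ratios of tissue to reference RNA (x axis) in the 5 vehicle mice for each of the 13 probes (y axis), in lung, liver and forestomach. Points are mice and bars are means of 5. Luc7l3, Ddx5 P611798 and Ddx5 P2076797 are farthest right in lung, Tra2a and Clk1 farthest left in liver, and Rsrp1 spreads over more than any other probe within a tissue.

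The wider splicing machinery did not follow the 3 falling probes in 1 direction. Of 118 other genes in 7 lists, 111 were tested in liver by the brightest probe of each, and 5 fell and 5 rose (1.65% and 0.966% of all probes did), with a median change over the dose range of 0.04 beside -0.0029 over all probes. In lung 0 of 114 and in forestomach 0 of 113 were called by limma, with 22 and 9 at an unadjusted p under 0.05, as were 14.3% and 8.28% of all probes, and in liver 43 of the 111 were under that p, as were 20.6% of all probes. In liver the count of 10 moved from 1 without mouse 19 to 15 without mouse 1, and without the slide block it was 1.

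Genes of nuclear speckle and RS-rich proteins had 4 lower and 2 higher of 23 in liver (1.65% and 0.966% of all probes), a median change of 0.10, and 15 at an unadjusted p under 0.05, as were 20.6% of all liver probes. Whether the lists differed was not tested. Nktr, a cyclophilin-related protein with an RS domain, changed by -0.73 ± 0.14 (SE, limma adjusted p = 0.0166), and Acin1, a partner of the exon junction complex, by -0.56 ± 0.12 (adjusted p = 0.022). Son, a large speckle scaffold, changed by 0.34 ± 0.08 and Ccnl2, a speckle cyclin, by 0.44 ± 0.10. Of these 4, Nktr alone was called without the slide block. Its other probe (A_51_P246387) had a positive change of 0.18 ± 0.09, not called.

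Among the other lists, liver calls are to be read beside the 1.65% of all liver probes called lower and 0.966% higher. Of 9 SR protein genes tested, Srsf5 rose by 0.85 ± 0.21 (SE, limma adjusted p = 0.0385) and Srsf2 changed by -0.31 ± 0.08 (adjusted p = 0.0451), and the median of the list was 0.10. The other Srsf2 probe (A_52_P8043) had a positive change of 0.17 ± 0.14, not called. By the same rule Hnrnpa2b1, an hnRNP protein, was the 1 called of 20 hnRNP genes (0.31 ± 0.06, median 0.09), and Snrnp200, the helicase of the U5 snRNP, the 1 called of 33 core spliceosome genes (0.25 ± 0.07, median 0.01). By the brightest probe, none of 10 kinases, 8 partners of U1 and LUC7 or 8 other DEAD-box helicases was called in liver, with median changes of -0.01, -0.15 and -0.0032. Their lowest p-values belonged to Prpf4b in lung (-0.30 ± 0.08) and Clk2 in liver (0.23 ± 0.07), to Tial1 in liver (-0.25 ± 0.08) and Prpf40b in lung (-0.23 ± 0.08), and to Ddx3x in forestomach (0.35 ± 0.11) and Eif4a3 in liver (0.24 ± 0.08).

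With all probes of the other 111 genes counted, 5 of 169 were called lower and 7 higher in liver, where 1.65% and 0.966% of all probes were. The calls by other than the brightest probe were Hnrnpk (A_55_P2107855, 0.39 ± 0.07, limma adjusted p = 0.0174), an hnRNP gene, and Prpf39 (A_52_P107234, 0.37 ± 0.09, adjusted p = 0.0365), a partner of U1. In lung 1 of 175 was called lower (0.0903% of all probes were), the SR-like gene Srsf10 (A_51_P519592, -0.30 ± 0.06, adjusted p = 0.0481). These 3 are named after their values were seen. Of the 51 genes, the 8 included, with at least 2 tested probes in liver, Ddx5 was the only 1 called in both directions.

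Of 7 nuclear noncoding RNAs tested in liver, Kcnq1ot1, an imprinted antisense transcript, fell by 0.58 on the log2 scale (limma adjusted p = 0.0138), while the median of the list was 0.11. Of the cold-inducible RNA-binding proteins, Cirbp changed in lung by 0.76 ± 0.23 and Rbm3 by 0.49 ± 0.16, neither of them called. Immediate early genes, which respond to handling within minutes, had negative changes for 10 of 10 in forestomach, with a median of -0.34, led by Junb (-0.35 ± 0.11) and Atf3 (-0.71 ± 0.24). Of these, 5 had an unadjusted p under 0.05, as did 8.28% of all forestomach probes, and none was called.

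Tissue identity held for most markers. In vehicle mice, 6 of 6 lung markers were higher in lung and 6 of 6 liver markers in liver than in the other 2 tissues. Of the forestomach markers, 5 of 6 were higher in forestomach, and 1 was called higher in liver than in forestomach (0.67). No gene of 11 marker lists was called by slope, and at an unadjusted p under 0.05 there were 12 of 52 lung, 5 of 36 liver and 4 of 50 forestomach genes, beside 14.3%, 20.6% and 8.28% of all probes. In lung, where Rsrp1 and Tra2a were lower at D3, mesothelial markers had positive changes for 5 of 5 (median 0.53, 3 at an unadjusted p under 0.05), and 4 of 6 lung and 3 of 5 smooth muscle markers were under that p, with medians of 0.20 and 0.30. The mean over mesothelial markers ran from -0.82 to 0.89 in D0 lungs and from 0.39 to 1.19 in D3 lungs. Some samples carried other tissue. The lung of vehicle mouse 1 had a mean log2 ratio over 6 skeletal muscle markers of 5.05, beside a median of -1.04 in D0, and of 3.86 over 5 forestomach markers. In lung the mean over 6 fat cell markers reached 5.14 in mouse 8 of D1, 4.63 in mouse 14 of D2 and 4.22 in mouse 20 of D3, beside a highest of 2.89 in D0, and that over 2 liver markers reached 3.498 in mouse 20. Without mouse 8, 14 or 20, the lung change of Rsrp1 was -1.75, -1.66 or -1.65, called except without mouse 14, and that of Tra2a was -0.42, -0.43 or -0.46, called only without mouse 20. In forestomach, the mean over 6 glandular stomach markers had a median of 1.20 in D0 (0.83 to 6.74), 7.37 in D1, 6.65 in D2 and 4.17 in D3 (0.22 to 6.63), beside the Luc7l and Rsrp1 values of that tissue. Vehicle forestomachs also held a mean of 6.28 over fat cell markers in mouse 5 and of 5.09 over lung markers in mouse 2. The part of these tissues in the changes was not tested. Without vehicle mouse 2 or 5, the forestomach change of Luc7l A_51_P489413 was -0.30 or -0.32 and that of Rsrp1 -1.31 or -1.12. In liver, where the 3 falls lay, no marker list was far apart between mice of a dose group (under 1 log2 unit), but some had negative changes with dose: 4 of 4 smooth muscle markers (median -0.16, 2 at an unadjusted p under 0.05), 2 of 2 mesothelial markers (median -0.21, both under that p) and 3 of 3 red cell markers (median -0.22, 1 under that p). Their part in the liver falls was not tested.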

How the data were processed

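The 60 deposited scanner files hold per spot the median signal intensity in Cy5 and Cy3, background and processed intensity and flags of spot quality, as exported by the scanner software Feature Extraction (version 10.7.3.1), and the authors deposited log2 ratios too, from uncorrected median signals after LOWESS. Here log2 ratios were rebuilt from the same signals by loess (limma 3.58.1, R 4.3.3, with data.table at version 1.17.8), with outlier spots missing (0.46%), no spot saturated, and spots of a probe averaged. They correlated with the deposited log2 ratios at r of 0.992 to 0.999 per array, with slopes of 0.983 to 0.998. Column medians of the deposited values lay between -0.04 and -0.01, and tissue over reference was the direction of both.

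A probe entered the fit of a tissue where its Cy5 spot was well above background on 5 or more of the 20 arrays. On single arrays, the share of probes well above background ran from 34.9% to 58.6% in lung, 36.3% to 48.3% in liver and 21.3% to 53.3% in forestomach. A slope on dose and D1, D2 and D3 against D0 were fitted by lmFit and eBayes with slide as a fixed block, two-sided, with Benjamini-Hochberg adjustment over the probes of the tissue. The call asked for adjusted p ≤ 0.05, and between groups for 1.5-fold as well. The fitted change over the dose range is the slope times 25 mg/kg-bw/day. Precision was limited by the 5 arrays per group. Log2 Cy5 and Cy3 of single channels were taken after Aquantile normalization.

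The genes and all lists were chosen with earlier results of these data known: SR proteins, kinases of splicing factors, U1 snRNP and LUC7 partners, nuclear speckle and RS-rich proteins, hnRNP proteins, core spliceosome, other DEAD-box helicases, nuclear noncoding RNAs, cold-inducible RNA-binding proteins, immediate early genes and 11 lists of tissue and cell markers (lung, liver, forestomach, skeletal muscle, fat, glandular stomach, red cells, T cells, B cells, smooth muscle, mesothelium). From each list at most 4 called genes with the lowest p were named, or the 2 with the lowest p where none was called. Symbols came from RefSeq accessions, which matched 26413 probes (47.4%). The file headers name build mm9, whereas promoters are from GRCm38.p6, and no coordinate of one was set against the other.

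Per the labels, a mouse number is the same animal in the 3 tissues. Over 22013 probes, deviations of same-numbered mice from their group means correlated at a median r of 0.27 between lung and forestomach, 0.07 between lung and liver and 0.0062 between liver and forestomach. The lung and forestomach arrays of a mouse always shared a slide and column. Animal and slide therefore cannot be told apart in that r, nor in the mouse block for lung against forestomach. Alternatives were normexp background correction (offset 50), processed signals, the deposited ratios, no slide block, other filters, trended and robust eBayes, leaving out each mouse and, between tissues, the mouse as a block. The fits were tested on simulated data.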

Additional observations from a re-analysis of the deposited data

Results flagged for a closer look

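In 8 of 156 groups of 5 mice, 1 mouse stood apart from the other 4 by more than Dixon's 95% limit of 0.71 for the gap as a share of the whole range, where chance marks about 1 in 20 groups, here 7.8. Of these, 4 concerned Rsrp1: mouse 10 was far above the other D1 mice in lung (share 0.736) and in liver (0.720), mouse 13 above the other D2 livers (0.733), and mouse 16 above the other D3 livers (0.713). In the D0 livers, mouse 5 was low for Arglu1 A_52_P423128 (0.719) and mouse 4 was low for Clk1 (0.780). In the D3 livers mouse 20 was high for Clk4 A_55_P2171008 (0.916), although the distance was small because the other 4 lay within -0.20 and -0.18. In the D3 forestomachs mouse 18 was low for Tra2a (0.726).

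For Arglu1 A_52_P423128, every D3 mouse lay below the D0 mean in lung and in forestomach and above it in liver. D3 minus D0 was -0.30 in lung, -0.23 in forestomach and 0.12 in liver. The difference between tissues was not tested.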

How the results depend on the processing

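No result turned its direction past a call. Over the 13 probes in 3 tissues, the slope kept its direction and its side of the threshold in 1001 of 1052 repeats, lost its call in 27 (20 of them Rsrp1 in lung and 7 Ddx5 A_55_P1990663 in liver), gained one in 6 (4 of them Tra2a in lung and 2 Clk4 A_55_P2171008 in liver) and changed sign without a call in 18. D3 minus D0 kept both in 985 of 1052, lost its call in 49 (19 of them Luc7l3, and 10 each Arglu1 A_55_P1977875 and Ddx5 A_55_P2076797 in liver and Rsrp1 in lung) and changed sign without a call in 18. Most of the 1052 were not called in any setting. Called slopes numbered 95 in lung and 677 in liver, and probes called at D3 numbered 21 and 24. In lung, normexp correction gave 155 slopes, 40 at D3 and 2 of the 13 probes, processed signals gave 7, 5 and 0, the deposited ratios gave 54 slopes, leaving out the slide block gave 0, 0 and 0, no filter gave 29 slopes and 0 of the 13 probes, and requiring all 20 arrays gave 159 slopes and 2 of the 13. In liver, processed signals gave 408 slopes and 12 at D3, no slide block gave 62, 0 at D3 and 1 gene of the splicing lists, no filter gave 368 slopes, requiring all 20 arrays gave 38 at D3, and trended, robust eBayes gave 40.

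Leaving out 1 mouse at a time, lung slopes ran from 3 (without mouse 17) to 226 (without mouse 20), lung calls at D3 from 1 (mouse 2) to 59 (mouse 5), lung calls among the 13 probes from 0 to 2 and among the splicing lists from 0 to 1. Liver slopes ran from 114 (mouse 19) to 1281 (mouse 1), liver calls at D3 from 0 (mouse 2) to 148 (mouse 1), the 13 probes from 3 to 5 and the splicing lists from 1 (mouse 19) to 15 (mouse 1). Forestomach gave 0 throughout. The cause of these shifts was not tested, beyond the smaller number of samples.

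Between tissues, the mouse as a replicate block, with the pairing taken from the labels, gave 5, 7 and 3 called probes for lung and forestomach, lung and liver, and liver and forestomach, against 4, 6 and 3, the additions being Rsrp1 in the first and second. Leaving out 1 mouse gave 4 to 5, 6 to 7 and 2 to 4. Over single probes and settings, 15 calls between tissues were gained and 4 lost. The losses were Arglu1 A_52_P423128 from liver to forestomach, with processed signals (-0.56) and without mouse 3 or 5, and Ddx5 A_55_P2076797 from lung to forestomach without mouse 3 (0.47), each under 1.5-fold. The gains concerned Clk4, Ddx5 A_55_P1990663 (0.60 to 0.68 from lung to liver), Arglu1 A_55_P1977875, Luc7l3 and Rsrp1. Probes that were dim, such as Luc7l A_55_P2414924, are limited by their signal over background.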
